A study of Mus musculus with 2 samples.

Results

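NK cells without Cd3e were taken from the CD45+ leukocytes infiltrating subcutaneous TSA tumors, a transplantable mammary adenocarcinoma of Balb/c mice. A cell entered the set when it held at least 1 UMI (unique molecular identifier, a tag that marks 1 captured RNA molecule) of Ncr1, no UMI of Cd3e, Cd8a or Cd8b1, and less than 0.2% of its UMIs from the complement genes C1qa, C1qb and C1qc, which tumor macrophages express strongly. The rule found 119 cells among 6198, of which 79 came from the 2922 cells of the untreated library and 40 from the 3276 cells of the NAM library. Untreated mice received no NAM. NAM-treated mice received nicotinamide (NAM), an amide form of vitamin B3 and a precursor of NAD, at 0.5% in their water over 10 days. Each library was 1 pool of tumors from 3 mice, enriched for CD45+ cells on magnetic beads, so there was 1 library per group, cells were not replicates, and no test was made between the groups. A difference between libraries and a difference due to NAM cannot be told apart, and every interval between the libraries covers counting error only.

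NK cells are innate lymphocytes that kill stressed or transformed cells without an antigen receptor of the kind that T cells carry. They weigh signals from activating receptors such as NKp46 (encoded by Ncr1) and NKG2D (Klrk1) against signals from inhibitory receptors for MHC class I, including the Ly49 family (Klra genes). Once engaged, they release perforin (Prf1) and granzymes, serine proteases that enter the target cell, and secrete interferon gamma (Ifng) and chemokines such as XCL1, which attracts cross-presenting dendritic cells.

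Members were chosen by their Ncr1, Cd3e, Cd8a, Cd8b1 and C1q UMIs, and these values are given as a description. The 79 untreated members held a median of 4 Ncr1 UMIs (highest 17) and the 40 members of the NAM library a median of 4.5 (highest 11), and 19 and 5 of them held a single Ncr1 UMI. At the C1q limit, the highest share inside the set was 0.198% of a cell's UMIs among untreated members and 0.122% among those of the NAM library, and the lowest share among cells left out by it was 0.253% and 0.954%. Of the 103 and 71 cells with any Ncr1 UMI, 11 and 19 were left out because they also held Cd3e, 1 and 0 because they held Cd8a or Cd8b1 without Cd3e, and 12 and 12 because of C1q. The members were shallower than the libraries at large, with a median of 5280 UMIs per untreated cell (range 3049 to 39957) and 4545.5 with NAM (3039 to 16581), against 9056 and 9128 over all cells. Together they held 570654 and 210414 UMIs, so the NAM values carry the larger counting error. The libraries shared 11 cell barcodes, and 0 of these belonged to a member.

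The label was checked against marker lists, leaving out the genes that chose the NK, T or C1q-high cells (Ncr1, Cd3d, Cd3e, Cd3g, Cd8a, Cd8b1 and the C1q genes). C1q-high cells are those with C1q at or over the limit and no Ncr1 or Cd3e UMI (1980 and 2178 cells). The 7 other NK markers, 4 of which had been named for these cells beforehand, summed to 8807 counts per 1000000 UMIs (CPM) over the untreated members and 8887 CPM over the members of the NAM library, against 632 and 990 CPM in T cells and 9.23 and 6.29 CPM in C1q-high cells. The 3 T-cell markers left (Cd4, Cd5, Cd6) summed to 3.50 and 4.75 CPM over the members, against 352 and 266 CPM in T cells, and 16 and 11 members held a UMI of Cd3d or Cd3g. With the choosing genes included, the 8 T-cell markers measured summed to 114 and 195 CPM over the members, against 4789 and 5286 CPM in T cells. The highest single members stood at 4946 and 2664 CPM, against medians of 4968 and 5717 CPM per T cell. All 4 B-cell markers measured were at 0 in both libraries. The 7 macrophage markers outside C1q summed to 1051 and 594 CPM, near the 896 and 683 CPM of T cells and below the 20726 and 19207 CPM of C1q-high cells. With the C1q genes included, the highest single members stood at 21619 and 2142 CPM, against medians of 1147 and 1026 CPM per member. NK and T cells were under the same C1q limit, so the choice of cells bears on their macrophage level. The 8 monocyte markers summed to 2842 and 2391 CPM over the members, above the 1710 and 2114 CPM of T cells, with Chil3 and Vcan at 0. The 10 dendritic cell markers summed to 2296 and 1183 CPM, below the 3300 and 2614 CPM of T cells, with Flt3, Xcr1, Clec9a and Cd209a at 0 and 1 untreated member at 71589 CPM. The part of these cell types in the results was not tested.

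The untreated set held members that the label fits less well. A UMI of Csf1r or Adgre1, receptors of the macrophage lineage, was present in 16 of 79 untreated members and 5 of 40 in the NAM library. In 5 untreated members, and in 0 of the NAM library, none of 7 other NK genes (Klre1, Gzma, Gzmc, Xcl1, Klrb1c, Eomes, Prf1) had a UMI. These 5 cells each held a single Ncr1 UMI, 4 of them held Csf1r or Adgre1, and their median depth was 13950 UMIs. Members with more than 15000 UMIs numbered 6 and 1 and carried 26.1% and 7.88% of the members' UMIs. Ratios between the libraries are therefore also given, for most genes described, without the cells that held Csf1r or Adgre1, which left 63 and 35 members.

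NK cells were a smaller share of the NAM library. They made up 2.70% of the untreated library (79 of 2922 cells, exact Clopper-Pearson 95% interval 2.15% to 3.36%) and 1.22% of the NAM library (40 of 3276, 0.874% to 1.66%). The share was 2.21-fold lower with NAM (log2 ratio -1.15, exact conditional 95% interval -1.73 to -0.58), and the intervals of both shares did not overlap. T cells, counted as cells with Cd3e and with Cd3d or Cd3g under the same C1q limit, went the other way in the counts, with 189 cells (6.47%, 5.60% to 7.42%) and 254 cells (7.75%, 6.86% to 8.72%), a log2 ratio of 0.26 (-0.016 to 0.54) whose interval held 0. With no C1q limit the T cells were 205 (7.02%) and 283 (8.64%), a log2 ratio of 0.30 whose interval of 0.036 to 0.57 left out 0. Among NK and T cells together, NK cells were 29.5% in the untreated library and 13.6% with NAM. A share of cells moves with every other population in the same library, and the number of NK cells per tumor was not measured.

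The size of the difference depended on how NK cells were drawn, and its direction did not in any of the 11 other definitions and denominators tried. The log2 ratio ran from -1.28 when Cd3d and Cd3g also had to be 0 to -0.70 when all cells with an Ncr1 UMI were counted. Part of that span lay in the cells with Cd3e. They were 11 of 103 Ncr1 cells in the untreated library (10.7%, 5.45% to 18.3%) and 19 of 71 with NAM (26.8%, 16.9% to 38.6%).

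**Figure D1:**
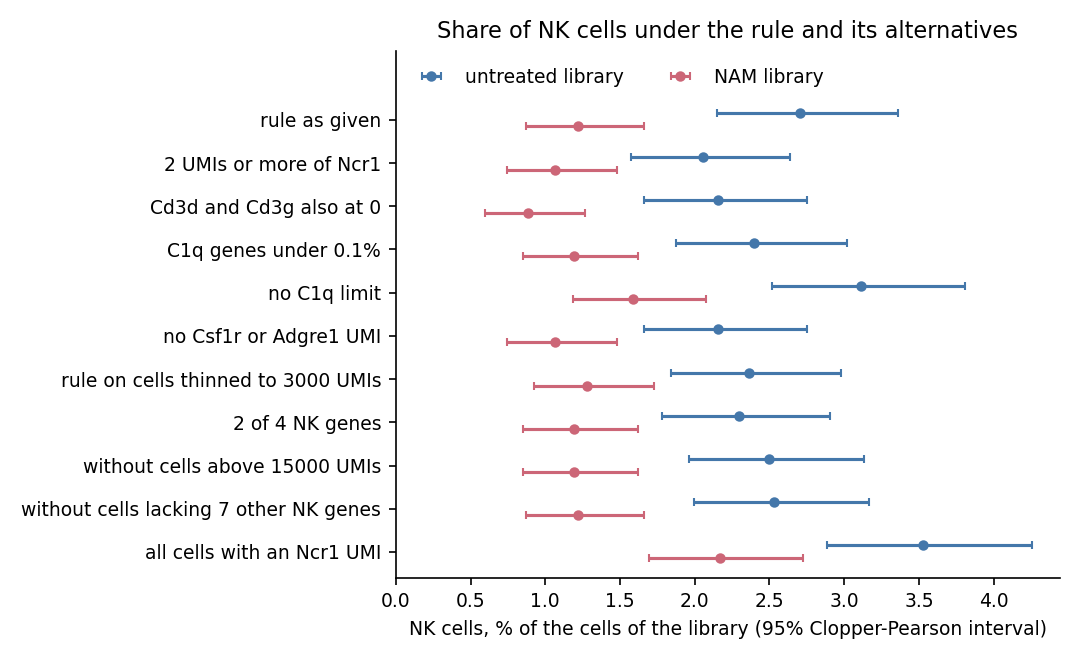
Share of cells in each library (percent of all cells, horizontal axis) for NK cells under the rule and under 10 other definitions, with exact Clopper-Pearson 95% intervals that cover counting error only. The NK share was 2.70% untreated and 1.22% with NAM, and it was lower with NAM under every definition of NK cells drawn.

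Granzymes differed between the libraries in both directions. Granzyme A (Gzma, chromosome 13) and granzyme B (Gzmb, chromosome 14) were higher with NAM, whereas granzyme C (Gzmc), a neighbor of Gzmb on chromosome 14, was lower. Their promoters, from 250 bases before to 50 bases after the start site taken with the sequences, are shown because these 3 granzymes are described cell by cell below. The GENCODE start of Gzmb, chr14:56262260, lies outside the window of Gzmb, which by that start holds only bases before it. The sequences are from RefSeq (GRCm38.p6), run 5′ to 3′ on the minus strand, on which all 3 genes lie, and cover chr13:113100932-113101231 for Gzma, chr14:56262285-56262584 for Gzmb and chr14:56234608-56234907 for Gzmc. Capitals mark the letters ACCACA or their reverse complement TGTGGT, the core recognized by RUNX factors, of which Runx3 is the member best known in cytotoxic lymphocytes.

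Gzma promoter: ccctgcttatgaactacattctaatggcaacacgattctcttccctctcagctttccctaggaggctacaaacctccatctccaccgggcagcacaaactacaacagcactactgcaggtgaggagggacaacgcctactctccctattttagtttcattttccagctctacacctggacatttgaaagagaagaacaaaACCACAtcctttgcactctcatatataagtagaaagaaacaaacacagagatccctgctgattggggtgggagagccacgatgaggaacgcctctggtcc
Gzmb promoter: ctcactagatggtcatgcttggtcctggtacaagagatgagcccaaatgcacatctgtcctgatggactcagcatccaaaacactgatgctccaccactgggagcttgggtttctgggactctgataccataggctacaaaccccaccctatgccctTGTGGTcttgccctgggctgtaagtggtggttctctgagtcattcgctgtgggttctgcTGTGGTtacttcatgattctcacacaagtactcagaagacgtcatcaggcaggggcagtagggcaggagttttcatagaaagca
Gzmc promoter: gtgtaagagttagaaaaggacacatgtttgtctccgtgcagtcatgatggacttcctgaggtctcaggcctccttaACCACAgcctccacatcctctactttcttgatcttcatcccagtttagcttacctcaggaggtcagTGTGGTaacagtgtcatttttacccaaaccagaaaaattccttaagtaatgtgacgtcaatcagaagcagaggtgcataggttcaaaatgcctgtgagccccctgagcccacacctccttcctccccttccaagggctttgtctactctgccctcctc

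The RUNX letters occurred 1 time in the Gzma window, 2 times in that of Gzmb and 2 times in that of Gzmc, and 16.8% of 32851 mouse promoters of this length held them on either strand. The letters TCACAC (reverse GTGTGA), part of the sequence bound by the T-box factors EOMES and T-BET, occurred 1 time in the Gzmb window and 0 times in the other two, against 14.5% of all promoters, and that match did not overlap a RUNX match. These are matches of letters and say nothing of binding.

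Gzma summed to 1481 UMIs (2595 CPM, exact Poisson 95% interval 2465 to 2731) in the untreated members and 1104 UMIs (5247 CPM, 4942 to 5566) in those of the NAM library, a log2 ratio of 1.02 (0.90 to 1.13). Without the members that held Csf1r or Adgre1 it was 0.60. Gzmb went from 1330 CPM (1237 to 1428) to 2871 CPM (2646 to 3109), a log2 ratio of 1.11 (0.95 to 1.27), and 0.94 without those members. Both genes kept this direction in every alternative, within 0.56 to 1.20 for Gzma and 0.72 to 1.28 for Gzmb. Gzmc went from 3915 CPM (3754 to 4081) to 1587 CPM (1422 to 1767), a log2 ratio of -1.30 (-1.47 to -1.14), which lay between -1.90 and -1.09 over all alternatives and was -1.90 without the Csf1r or Adgre1 cells. In the untreated and NAM libraries the 3 top cells of a gene held 23.4% and 27.6% of the Gzma UMIs, 20.4% and 45.9% for Gzmb. For Gzmc they held 47.2% and 55.1%. The intervals do not cover this spread among cells. Granzymes B to G are close paralogs at 1 locus, and counting may have assigned reads of one to another or dropped them.

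The same order held over single cells. A Gzma UMI was found in 38 of 79 untreated members and 27 of 40 with NAM, with a median of 0 and 30.9 UMIs per 10000 UMIs of the cell. For Gzmb it was 56 of 79 and 38 of 40, with medians of 5.26 and 15.6. For Gzmc it was 44 of 79 and 20 of 40, with medians of 1.6 and 0.30. After every cell was thinned to 3000 UMIs, the share of members with Gzma was 43.0% (31.9% to 54.7%) and 67.5% (50.9% to 81.4%), and that with Gzmb was 64.6% (53.0% to 75%) and 92.5% (79.6% to 98.4%). The same share for Gzmc was 48.1% (36.7% to 59.6%) and 40% (24.9% to 56.7%), whose intervals overlap. In C1q-high cells, which should lack these genes and were deeper (medians of 9632 and 9725.5 UMIs), a Gzma UMI was present in 3.59% and 3.86% of cells, a Gzmb UMI in 2.27% and 2.75% and a Gzmc UMI in 2.58% and 0.735%, a background far below the shares in NK cells.

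**Figure D2:**
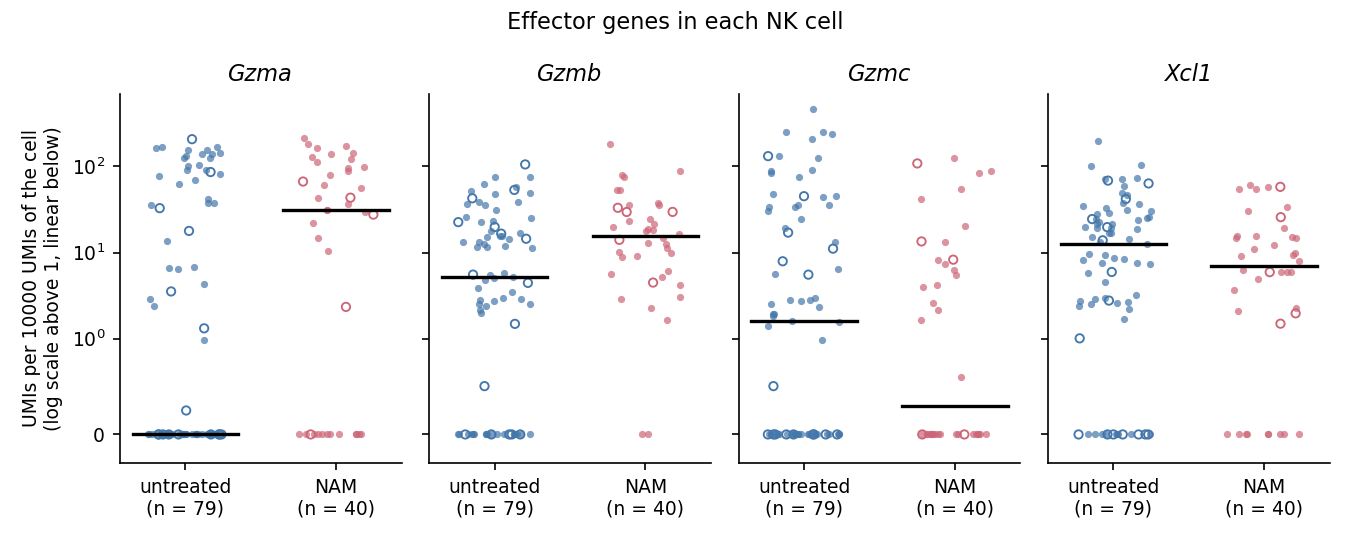
Effector genes in single NK cells (UMIs per 10000 UMIs of the cell, vertical axis), on a log scale above 1 and a linear scale below it, with 1 point per cell (open where it held Csf1r or Adgre1) and a bar at the median of each library. The median of Gzma was 0 in the untreated library and 30.9 with NAM, that of Gzmb 5.26 and 15.6, and that of Xcl1 12.7 and 7.06.

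The remaining granzymes of the locus rested on 1 untreated cell. Gzmd summed to 664 and 181 CPM, Gzme to 224 and 99.8 CPM, Gzmf to 1057 and 4.75 CPM, and Gzmg to 696 and 0 CPM. In the untreated library a single cell held 84.2% of the Gzmd UMIs, 68.0% of those of Gzme, 99.2% of those of Gzmf and 98.7% of those of Gzmg. Without that cell the log2 ratio of Gzmd turned from -1.86 to 0.72 and that of Gzme from -1.14 to 0.42, so the sums of these genes describe that cell and not the members at large.

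Among the other granule genes, Nkg7 and Serpinb9 were past 1.5-fold higher with NAM and Ctsc and Lamp1 past 1.5-fold lower, and 0 of these 4 were past it without the cells with Csf1r or Adgre1. Nkg7, a membrane protein of cytotoxic granules, stood at 1770 and 2775 CPM (log2 ratio 0.65, 0.50 to 0.80, and 0.26 without those cells). Serpinb9, the inhibitor that protects killer cells from their own granzyme B, stood at 722 and 1193 CPM (0.73, 0.49 to 0.95, and 0.38). Serpinb6b, a serpin of the same clade, stood at 499 and 737 CPM (0.56, 0.27 to 0.85, and 0.11). Prf1 was sparse, with 26 and 11 UMIs (45.6 and 52.3 CPM), and its interval of -0.97 to 1.26 held 0 (log2 ratio 0.24, and -0.12 without those cells). Among 17 of the 23 genes listed for granules and death ligands with at least 50 UMIs, 4 were past 1.5-fold higher with NAM (Gzma, Gzmb, Nkg7, Serpinb9) and 7 past 1.5-fold lower (Gzmc to Gzmg, Ctsc, Lamp1), with a median log2 ratio of -0.04. Without the Csf1r or Adgre1 cells 2 of the 17 were higher and 4 lower, with a median of -0.14. Over all 2076 genes with at least 50 UMIs, 145 (6.98%) were past 1.5-fold higher and 252 (12.1%) past 1.5-fold lower, with a median of -0.006, and these shares are the background for list counts between the libraries. Over the same genes without the Csf1r or Adgre1 cells, 7.66% were higher and 9.63% lower, the background for list counts without those cells.

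Of 6 secreted factors with at least 50 UMIs, 1 was past 1.5-fold higher with NAM (Ccl5), 1 lower (Spp1) and 4 within it, and without the Csf1r or Adgre1 cells 0 were higher and 3 lower. Xcl1 stood at 1791 CPM (1683 to 1904) in untreated members and 1431 CPM (1273 to 1602) with NAM (log2 ratio -0.32, -0.51 to -0.14, and -0.68 without the Csf1r or Adgre1 cells). Osteopontin (Spp1), a secreted phosphoprotein, stood at 2161 and 518 CPM (-2.05, -2.36 to -1.78, and -1.82 without the Csf1r or Adgre1 cells). A single cell held 42.6% of the untreated Spp1 UMIs, and C1q-high cells had 534 and 555 CPM of it. Ccl5, a chemokine for T cells and monocytes, stood at 1123 and 1777 CPM (0.66, 0.47 to 0.85, and 0.31 without those cells), but its ratio was -0.21 when members needed at least 2 Ncr1 UMIs. Ifng was near the limit of detection, with 6 UMIs (10.5 CPM, 3.86 to 22.9) and 17 UMIs (80.8 CPM, 47.1 to 129), and 1 cell held 52.9% of those with NAM.

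Of 11 NK receptor genes outside the Ly49 family with at least 50 UMIs, 0 passed 1.5-fold in either direction, but without the Csf1r or Adgre1 cells 0 were higher and 2 lower past it (Cd7 and Cd160, at -0.74 and -1.04), and their median log2 ratio was 0.33, or -0.10 without those cells. Klre1, a lectin-like receptor, stood at 221 and 276 CPM (log2 ratio 0.33, -0.15 to 0.78, and -0.10 without those cells), Klrd1 (CD94) at 654 and 946 CPM (0.53, and 0.08 without those cells), and Klrk1 at 340 and 451 CPM (0.41, and 0.06). The 3 of 11 Ly49 genes with at least 50 UMIs, Klra3, Klra7 and Klra9, were all past 1.5-fold higher, with ratios of 0.88, 0.96 and 0.64. Without the Csf1r or Adgre1 cells 0 of the 3 remained so (0.43, 0.50 and 0.17). Ly49 genes vary between strains and the reads of Balb/c mice were aligned to a C57BL/6 reference, so their counts are uncertain.

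Of 10 genes of homing and adhesion with at least 50 UMIs, 5 were past 1.5-fold higher with NAM and 0 lower (median 0.50). Without the Csf1r or Adgre1 cells 3 were higher and 1 lower (median 0.27). Selplg, the ligand of P-selectin, stood at 471 and 965 CPM (log2 ratio 1.03, 0.76 to 1.30, and 0.61 without those cells). Cd69, an early activation antigen that holds lymphocytes in tissue, had 31 and 29 UMIs (54.3 and 138 CPM, 1.34, 0.56 to 2.12, and 1.04). Cxcr4, the receptor of CXCL12, stood at 105 and 200 CPM (0.93, 0.32 to 1.52, and 0.72). Itgb7, an integrin chain of gut homing, was also among them, at 0.71, and at 0.50 without those cells. The adhesion receptor Cd2 stood at 205 and 409 CPM (1.00, 0.58 to 1.41, and 0.55).

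**Figure D3:**
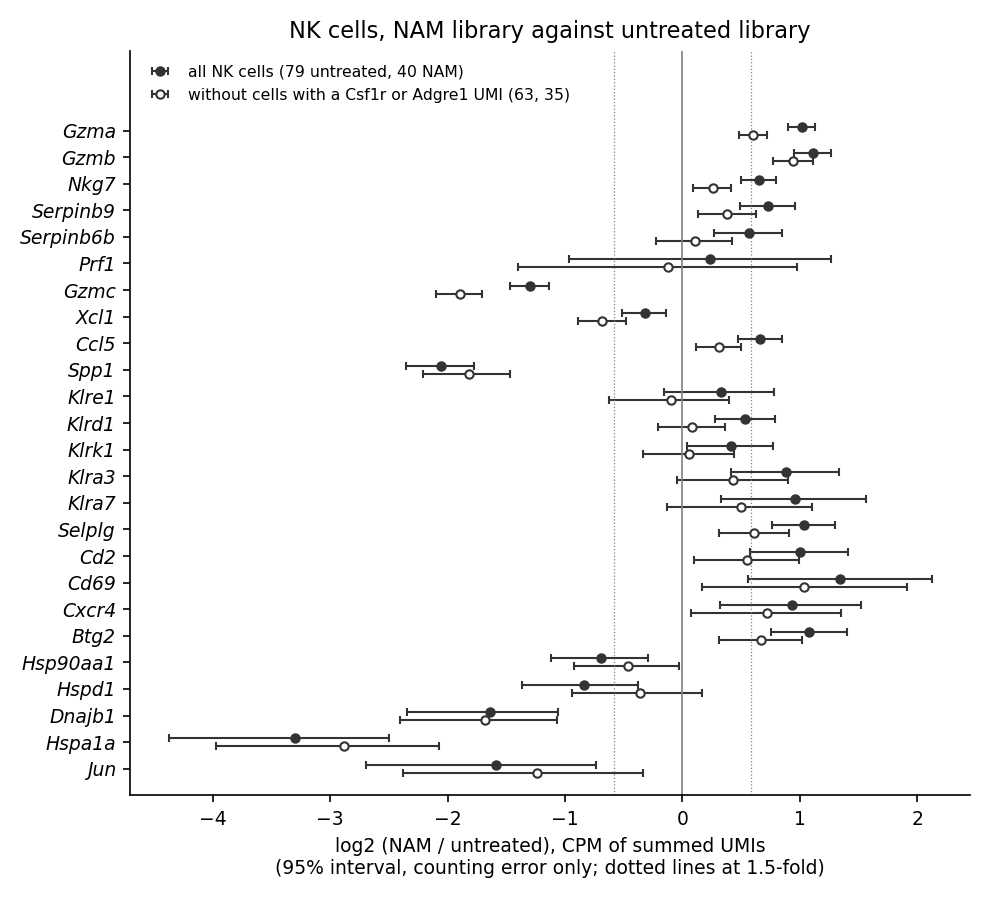
Log2 ratio of CPM, NAM over untreated (horizontal axis), for named genes in all NK cells (filled points) and without cells holding a Csf1r or Adgre1 UMI (open points), with exact conditional 95% intervals for counting error and dotted lines at 1.5-fold. Gzma and Gzmb lie above 0 and Gzmc, Spp1, Dnajb1, Hspa1a and Jun below it in both sets, and the receptors Klre1, Klrd1 and Klrk1 lie near 0 once those cells are left out.

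Of 11 heat shock genes with at least 50 UMIs, 5 were past 1.5-fold lower in the NK cells of the NAM library and 0 higher (median -0.53). Without the Csf1r or Adgre1 cells 3 were lower (median -0.36). The inducible HSP70 gene Hspa1a stood at 536 CPM (478 to 600) and 52.3 CPM (26.1 to 93.5), a log2 ratio of -3.30 (-4.38 to -2.50). That ratio was -2.89 without those cells and ran from -3.71 with the rule on thinned cells to -1.53 with no C1q limit. In T cells it stood at 699 and 93.8 CPM, and in C1q-high cells at 1108 and 381 CPM. Hspa1b, its near-identical copy, between which the assignment of reads is uncertain, was at 91.1 CPM in the untreated members and 0 in those of the NAM library, at least 6.39-fold lower against a floor of 3 UMIs (14.3 CPM). The co-chaperone Dnajb1 stood at 363 and 114 CPM (-1.64, -2.34 to -1.06, and -1.68 without those cells), Hsp90aa1 at 478 and 295 CPM (-0.69, and -0.46), and Hspd1, the mitochondrial HSP60, at 370 and 204 CPM (-0.84, and -0.36 without the Csf1r or Adgre1 cells). The immediate early gene Jun was lower as well, at 163 and 52.3 CPM (-1.58, -2.69 to -0.73, and -1.24 without those cells), with 379 and 217 CPM in C1q-high cells. Of 16 immediate early genes with at least 50 UMIs, 3 were past 1.5-fold higher (Nr4a2, Dusp2 and Btg2), 2 lower (Jun and Fos) and 11 within it, and without the Csf1r or Adgre1 cells 3 were higher and 1 lower. Fos stood at 166 and 105 CPM (-0.65, -1.41 to 0.0098, and 0.34 without those cells) and Btg2 at 317 and 670 CPM (1.08, 0.75 to 1.40, and 0.67).

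The 10 largest ratios among genes with at least 50 UMIs, in at least 10 NK cells, that were not on the marker lists of other cell types were Hes1, Nr4a2, Arid5a, Ypel3, Cd69, Neurl3, Rab37, Cdc42se1, Gpr18 and Lgals9, between 1.78 and 1.19. Hes1, a repressor downstream of Notch, stood at 57.8 CPM (33 UMIs) and 200 CPM (42 UMIs), and its ratio of 1.78 (1.09 to 2.49) was 2.31 without the Csf1r or Adgre1 cells. The other 9 rested on 23 to 41 UMIs with NAM. The 10 smallest ratios were Ifitm1, Ctsk, Gsn, Hspa1b, Acp5, Ccl9, Cd68, Pltp, Cfp and Hspa1a, and several of these are known from macrophages or osteoclasts. For each of Ctsk, Acp5 and Ifitm1, the top untreated cell of that gene held 98.5%, 90.9% and 87.4% of its UMIs. The top Ifitm1 cell was the cell with most Gzmf, and the top Ctsk cell was a different one. Without the Csf1r or Adgre1 cells the ratio of Ctsk turned from -5.36 to 0.98 and that of Ccl9 from -4.30 to 0.13, while that of Cd68 shrank from -3.72 to -0.30.

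In the untreated library, members with Gzma only and members with Gzmc only each outnumbered those with both, whereas in the NAM library members with both outnumbered those with Gzmc only, 8 against 5. Classes were set after the values were seen, by at least 2 UMIs of each gene in a cell thinned to 3000 UMIs. In the untreated library 24 of 79 members (30.4%, 20.5% to 41.8%) held Gzma only, 23 (29.1%, 19.4% to 40.4%) Gzmc only, 6 (7.59%, 2.84% to 15.8%) both and 26 (32.9%, 22.7% to 44.4%) neither. With NAM these were 18 of 40 (45.0%, 29.3% to 61.5%), 5 (12.5%, 4.19% to 26.8%), 8 (20.0%, 9.05% to 35.6%) and 9 (22.5%, 10.8% to 38.5%). The 5 members lacking the other NK genes were all in the untreated class with neither. The intervals of each class overlap between the libraries.

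**Figure D4:**
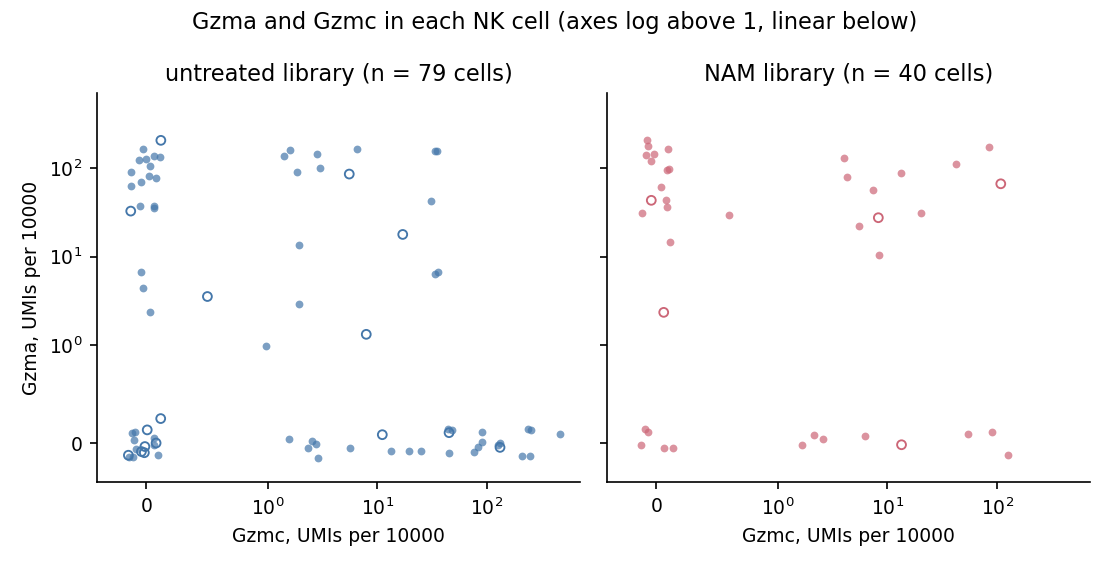
Gzma (vertical axis) against Gzmc (horizontal axis) in single NK cells, as UMIs per 10000 UMIs of the unthinned cell on scales that are log above 1 and linear below, with 1 point per cell (scattered slightly at 0, and open where the cell held Csf1r or Adgre1). Many cells lie along 1 axis only, and after thinning 24 untreated cells were Gzma only, 23 Gzmc only and 6 both, against 18, 5 and 8 with NAM.

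Other genes differed between the classes in the same direction in both libraries, given as UMIs per 10000 over the thinned cells of a class, with 5 cells in the Gzmc class of the NAM library. The Gzma class held more Ccl5, at 52.9 against 1.30 in the Gzmc class of the untreated library and 41.9 against 10.7 with NAM. It also held more Klra3 (5.83 against 1.30, and 5.00 against 0.67), more Klf2, a factor of lymphocyte recirculation (6.39 against 1.30, and 6.30 against 0.67), and more Eomes, the T-box factor of mature NK cells (2.78 against 0.14, and 0.93 against 0). The Gzmc class held more Xcl1, at 36.8 against 8.06 in the untreated library and 24.7 against 6.85 with NAM. It also held more Ifitm2 (14.2 against 1.11, and 14 against 1.11) and Cxcr6, a receptor of tissue-resident lymphocytes (2.17 against 0, and 4.00 against 0). Gzmd was higher in the Gzmc class too (8.70 against 0, and 8.0 against 0). It rested on few cells, 5 among the 23 of the untreated class and 2 among the 5 with NAM. The untreated cell with most Gzmf, which had 0 Gzma and 349 Gzmc UMIs, held 319 Gzmd UMIs before thinning. The Gzmd values therefore do not describe the class at large. Ccl4 differed in opposite directions, at 4.58 against 1.01 in the untreated library and 0.56 against 8.67 with NAM. Eomes was found in 14 of 24 and 4 of 18 thinned cells of the Gzma class and in 1 of 23 and 0 of 5 of the Gzmc class. Whether other innate lymphoid cells were among the members was not tested. The genes given for the classes were picked for their values, and no test was made.

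NK cells were then compared with T cells of the same libraries. UMIs were summed over 79 NK and 189 T cells of the untreated library and 40 NK and 254 T cells of the NAM library and fitted with edgeR's quasi-likelihood test, with the library as a block. The fit had 4 sums and 1 residual degree of freedom, so its p-values lean on the spread shared across genes. Of 6631 genes tested, with the 9 genes of the rule left out, 135 (2.04%) were higher in NK cells and 194 (2.93%) lower at an adjusted p under 0.05. The marker genes Klre1, Gzma, Gzmc and Xcl1 had been named for these cells beforehand, and their values are a description with no test. The 135 include these 4 genes (131 without them), and the list counts given for this comparison leave them out.

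Granule genes were among the widest differences between NK and T cells. Gzma stood at 2595 and 5247 CPM in NK cells against 113 and 95.9 CPM in T cells (edgeR log2 difference 5.19 ± 0.29, SE), and Gzmc at 3915 and 1587 CPM against 76.5 and 50.1 CPM (5.37 ± 0.23). Gzmb stood at 1330 and 2871 CPM against 627 and 867 CPM (1.44 ± 0.20, adjusted p = 5.9e-04 in edgeR's test). Of 20 granule and death ligand genes tested beside Gzma and Gzmc, 8 were higher in NK cells, 1 lower and 11 not called, and DESeq2 called 4. The 8 included Prf1, Gzmd, Gzme and Gzmg, and DESeq2 called 0 of these 4. Gzmg stood at 696 and 0 CPM in NK cells against 0.957 and 15.5 CPM in T cells, on opposite sides in the 2 libraries (4.52 ± 1.15, adjusted p = 0.040 in edgeR's test), and 1 untreated cell held 98.7% of its untreated NK UMIs. Without that cell Gzmg was below the filter, and 7 of the 18 genes then tested were higher and 1 lower. Serpinb9 was higher by 2.19 ± 0.19 (adjusted p = 1.5e-05) and Serpinb6b by 1.77 ± 0.20 (adjusted p = 1.4e-04). The cysteine protease Ctsw was higher by 1.20 ± 0.19 (adjusted p = 1.9e-03). Nkg7 was not called, at 1770 and 2775 CPM against 2146 and 2713 CPM in T cells (-0.09 ± 0.17, adjusted p = 0.89). Granzyme K (Gzmk), known from memory T cells, was the one lower, with 3 UMIs in the NK cells of each library.

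Of 18 NK receptor genes tested beside Klre1, 7 were higher in NK cells, 1 lower and 10 not called, and DESeq2 called 4. Klrb1c, a lectin-like receptor gene, stood at 140 and 204 CPM against 2.87 and 9.87 CPM in T cells (4.76 ± 0.35, adjusted p = 2.9e-06 in edgeR's test). Klrb1f stood at 102 and 133 against 15.3 and 12.7 CPM (3.07 ± 0.34, adjusted p = 1.2e-04). Klre1 stood at 221 and 276 against 80.4 and 104 CPM (1.46 ± 0.22). Klrk1, Klrd1 and Klrc1 were not called, with differences of 0.47 ± 0.20, 0.23 ± 0.18 and 0.20 ± 0.19, and Klrd1 stood at 617 and 762 CPM in T cells. Klrg1, a receptor of terminally differentiated cells, was lower in NK cells, at 42.1 and 4.75 CPM against 108 and 59.9 CPM (-1.67 ± 0.37, adjusted p = 0.018). Of 5 Ly49 genes tested 2 were higher, Klra3 by 2.75 ± 0.28 (adjusted p = 5.5e-05) and Klra9 by 2.47 ± 0.37 (adjusted p = 1.3e-03).

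Of 15 signaling adaptors, 4 were higher in NK cells, 4 lower and 7 not called, and DESeq2 called 4. Tyrobp (DAP12), the adaptor of activating Ly49 receptors, stood at 1929 and 2295 CPM in NK cells against 374 and 398 CPM in T cells (2.48 ± 0.18, adjusted p = 2.4e-06 in edgeR's test). Fcer1g, the adaptor of CD16 and NKp46, was higher by 1.69 ± 0.18 (adjusted p = 8.0e-05). Both are also myeloid genes, with 2510 and 2747 CPM of Tyrobp in C1q-high cells, and the part of myeloid RNA in the NK level was not tested. Lat and Zap70, which serve the T-cell receptor, and Cd247, which serves it and also CD16 and NKp46, were among those lower, Lat with a log2 difference of -2.62 ± 0.29 (adjusted p = 1.3e-04) and Cd247 of -1.89 ± 0.32 (adjusted p = 3.0e-03).

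**Figure D5:**
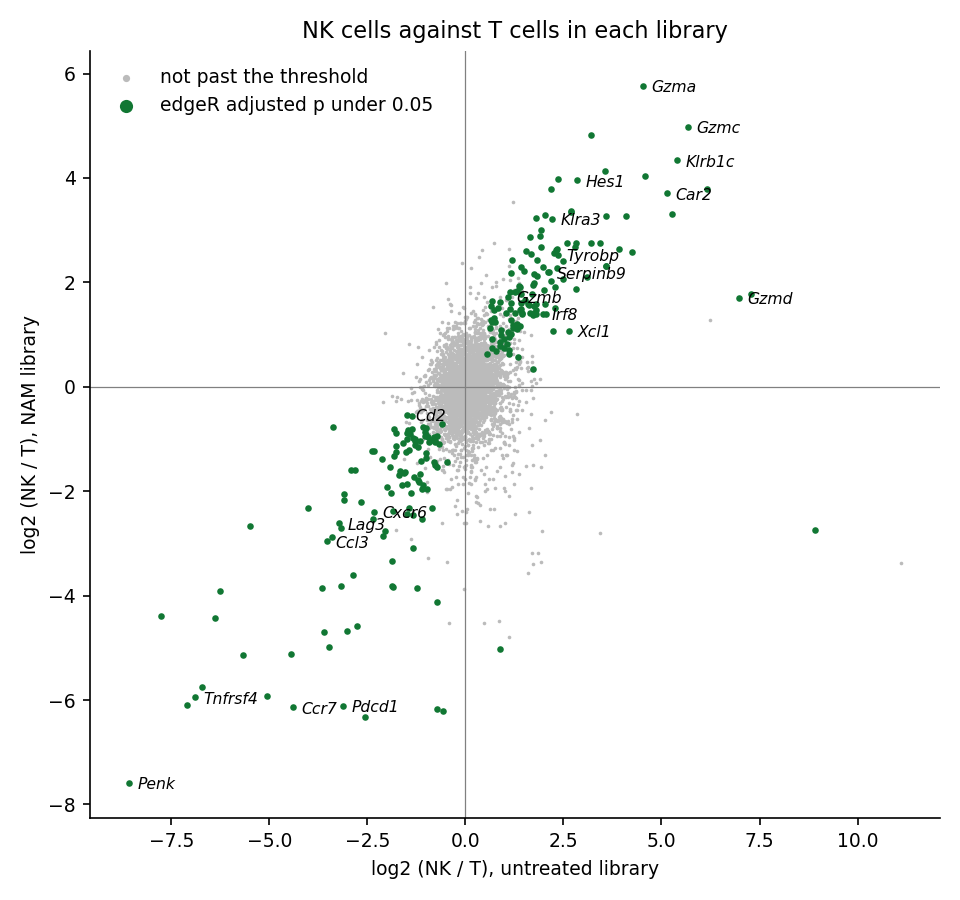
Log2 ratio of NK over T cells in the untreated library (horizontal axis) against the same in the NAM library (vertical axis), with 1 point per gene tested and genes called by edgeR marked. Gzma, Gzmc (both without a test in the text) and Klrb1c lie high and Tnfrsf4, Penk and Ccr7 low in both libraries.

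Other genes in the 15 largest differences were Car2, carbonic anhydrase 2, at 627 and 627 CPM against 17.2 and 48.0 CPM in T cells (4.37 ± 0.31, adjusted p = 2.4e-06), and Rab27b, a GTPase of granule release, at 84.1 and 128 against 6.70 and 7.05 CPM (3.95 ± 0.39, adjusted p = 4.5e-05). Hes1 followed at 57.8 and 200 against 7.65 and 12.7 CPM (3.62 ± 0.38, adjusted p = 8.0e-05). Hhex, Tmem176b, Cant1 and 5430421N21Rik were higher by 2.43 to 3.05 in edgeR's fit. Gzmd and Gzme were also called (3.8 ± 0.74 and 3.50 ± 0.64), and the untreated cell described above carries most of their untreated NK UMIs. Without it both were still called by edgeR.

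Genes of inhibitory and costimulatory receptors were lower in NK cells or not called. Of 8 inhibitory receptor genes tested, 4 were lower in NK cells and 4 not called, and DESeq2 called 2. Pdcd1 (PD-1) stood at 45.6 and 4.75 CPM in NK cells against 404 and 495 CPM in T cells (-3.81 ± 0.41, adjusted p = 8.8e-05 in edgeR's test), with 57.7% of the untreated NK UMIs in 1 cell. Lag3 stood at 52.6 and 90.3 against 495 and 568 CPM (-2.95 ± 0.26, adjusted p = 1.5e-05) and Ctla4 at 21.0 and 33.3 against 231 and 262 CPM (-3.24 ± 0.29, adjusted p = 2.1e-05). Of 9 costimulatory receptors 8 were lower (4 by DESeq2), led by Tnfrsf4 (OX40) at 5.26 and 9.51 against 729 and 733 CPM (-6.76 ± 0.35, adjusted p = 2.0e-07). Tnfrsf9 (4-1BB) and Cd2 were lower by less, at -0.90 ± 0.18 (adjusted p = 0.011) and -1.0 ± 0.24 (adjusted p = 0.032). Foxp3, the factor of regulatory T cells, had 0 UMIs in NK cells of both libraries against 72.7 and 50.8 CPM in T cells, at least 13.8-fold and 3.56-fold lower against a floor of 3 UMIs per library. Penk, the gene of the opioid precursor proenkephalin, was at 0 in NK cells and at 334 and 457 CPM in T cells, at least 63.5-fold and 32.1-fold lower. Nrn1 and Slc17a6, at 0 in NK cells too, were at least 22.7-fold and 11.4-fold, and at least 17.5-fold and 9.0-fold lower. These differences set NK cells against a mixed set of T cells with CD4 and CD8 cells and regulatory T cells in it.

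Of 16 homing and adhesion genes tested, 4 were higher in NK cells, 3 lower and 9 not called (3 called by DESeq2). Among secreted factors, Xcl1 stood at 1791 and 1431 CPM in NK cells against 285 and 684 CPM in T cells (1.89 ± 0.29). Of 11 other secreted factors tested 1 was higher, Spp1, 5 lower and 5 not called (2 called by DESeq2), with Ccl3 at 42.1 and 14.3 against 496 and 129 CPM (-3.47 ± 0.30, adjusted p = 1.3e-05 in edgeR's test) and Ifng at 10.5 and 80.8 against 117 and 142 CPM (-1.91 ± 0.45, adjusted p = 0.025). Ccr2, a receptor of inflammatory recruitment, was higher in NK cells by 1.58 ± 0.22 (adjusted p = 6.3e-04), as was Itgb1. Ccr7, the receptor of lymph node homing, was lower (-4.86 ± 0.33, adjusted p = 1.3e-06), and so was Cxcr6 (-2.35 ± 0.23, adjusted p = 4.5e-05).

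Of 20 lineage factors tested, 2 were higher in NK cells (Irf8 and Runx3), 4 lower (Tox, Ikzf2, Bcl11b, Foxp3) and 14 not called, and DESeq2 called 3. Irf8 stood at 1426 and 1369 CPM against 360 and 520 CPM in T cells (1.72 ± 0.19, adjusted p = 1.2e-04 in edgeR's test). Eomes and Tbx21, the T-box factors of the NK lineage, stood at 99.9 and 90.3 against 57.4 and 31.7 CPM (1.09 ± 0.29, adjusted p = 0.052) and at 54.3 and 105 against 35.4 and 47.2 CPM (0.91 ± 0.31, adjusted p = 0.15). Among the genes of innate lymphoid cells, 3 of 9 tested were higher (Ctla2a, Tmem176a, Tmem176b) and 3 lower (Cxcr6, Il7r, Areg). Ctla2a stood at 941 and 1307 against 429 and 374 CPM (1.5 ± 0.21, adjusted p = 7.0e-04). Of 75 genes called and named for this comparison, 46 kept their call under every alternative that tested them, and 58 under every such one other than DESeq2. Among those that lost it elsewhere too were Ccl4, Cd2, Gzmd, Gzme, Gzmg, Ifng, Ikzf2, Il2ra, Klrb1a, Klrg1, Prf1, Runx3, Spp1 and Tnfrsf18. Of these, Cd2, Ikzf2, Il2ra, Prf1, Spp1 and Tnfrsf18 lost it against T cells with Cd8a or Cd8b1 alone, and Spp1 also when the Csf1r or Adgre1 cells were left out. With DESeq2 alone, Penk, Nrn1, Slc17a6, Foxp3, Pdcd1, Havcr2, Cd247, Zap70, Lat2, Itgb1, Cd28 and Tox were not called. An alternative whose filter left a gene out was not counted against that gene. Foxp3, Il1r2 and Klrg1 had values in 18 of 19 settings, the main one included, and Gzmg in 13.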

How the data were processed

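RNA of CD45+ cells from TSA tumors was counted in 2 libraries, 1 untreated and 1 NAM, each from 3 pooled mice. The deposited values were raw UMI counts of genes in cells. The authors prepared 10x Genomics 3′ libraries (version 2 chemistry), ran Cell Ranger on mm10 and kept cells with at least 1000 genes, at least 3000 UMIs and at most 10% mitochondrial UMIs. Seurat is also named in the submitters' processing notes. The files held 27998 gene symbols and totals of 29161823 and 32090120 UMIs, and 0 columns were left unmapped. Doublets were not removed. Itgam and the constant genes of the T-cell and B-cell receptors were not analysed here, and some listed genes are not reported here.

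UMIs were summed per library over NK and T cells and divided by the sum to give CPM. Intervals are at 95%: Poisson for CPM, conditional binomial for ratios (0.5 UMIs added to both sums for the ratio itself), Clopper-Pearson for shares. Genes with 50 or more UMIs over both libraries entered the NAM ratios, and past 1.5-fold counted as called. NK and T cells were compared with edgeR 4.0.16 (quasi-likelihood test, filterByExpr, TMM scaling, library as block, Benjamini-Hochberg adjustment, R 4.3.3), in which the single residual degree of freedom holds any difference between the libraries in the NK to T contrast. The adjusted p covers all genes tested. Named genes were the list members of 20 gene lists, the 10 largest and 10 smallest NAM ratios past 1.5-fold (in at least 10 cells, interval without 0), and the 15 largest and 15 smallest called differences from T cells on 1 side in both libraries at 100 CPM or more in the higher type. Rule genes and genes on the marker lists of other cell types were left out of these ranks, and other genes known from those cells (such as Cd68) were not. Members and lists were chosen with earlier results of these data known. Other definitions of NK and T cells, scalings, filters, a fit with no block and DESeq2 1.42.0 were tried. Coordinates came from GENCODE vM21 (GRCm38). Scripts ran in Python 3.11.15 and were tested on simulated data.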

Additional observations from a re-analysis of the deposited data

Results flagged for a closer look

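Of 158 listed genes with at least 50 UMIs in NK cells, 4 differed between the libraries past 1.5-fold in opposite directions in NK and T cells, with both counting intervals leaving out 0. The difference between the cell types was not tested, since each had 1 library per group. All 4 are granzymes of the chromosome 14 locus. In NK cells the log2 ratio, NAM over untreated, was -1.86 for Gzmd and -1.14 for Gzme. The fitted values of -7.21 for Gzmf and -8.20 for Gzmg depend on the 0.5 UMIs added and are no bounds, since NK cells of the NAM library held 1 and 0 UMIs of these genes. Against a floor of 3 UMIs, Gzmg was at least 48.8-fold lower. In T cells Gzmd went from 4.78 to 55.7 CPM, Gzme from 0.957 to 29.6 CPM, Gzmf from 0 to 74.0 CPM and Gzmg from 0.957 to 15.5 CPM. In untreated NK cells 1 cell held 84.2%, 68.0%, 99.2% and 98.7% of the UMIs of Gzmd, Gzme, Gzmf and Gzmg. Without that cell the NK ratios of Gzmd and Gzme turned positive, the same direction as in T cells.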

How the results depend on the processing

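The lower NK share with NAM kept its direction, with an interval that left out 0, under all alternatives run. Over 73 genes named for NAM, 949 alternative values were computed, and 69 lay on the other side of 0 from the reported value. Of these, 44 belonged to 11 genes that were not past 1.5-fold with an interval without 0 (among them Klre1, Klrc1, Prf1, Fasl, Fos and B2m), and 25 to genes that were. Those 25 were Ccl5 (-0.21), Ctsc (0.052) and Ctsk (0.82) with at least 2 Ncr1 UMIs; Gzme (0.55) and Gzmf (0.054) with Cd3d and Cd3g at 0; Cd68 (0.035), Cfp (0.22), Ctsc (0.77) and Lamp1 (0.42) with no C1q limit; Ctsk (0.98), Ccl9 (0.13) and Ctsc (0.20) without Csf1r or Adgre1 cells; Ctsk (0.88), Gzmd (0.84), Gzme (0.95) and Gzmf (0.88) with the rule on thinned cells; Ctsk (0.37), Ccl9 (1.91) and Ctsc (0.44) with 2 of 4 NK genes required; Ctsk (0.83), Gzmd (0.65) and Gzme (0.32) without cells above 15000 UMIs; Ctsk (0.31) without its top cell; and Gzmd (0.72) and Gzme (0.42) without the cell with most Gzmf. The count of genes past 1.5-fold (145 higher, 252 lower, 397 in all) was 77, 106 and 183 with at least 2 Ncr1 UMIs, 78, 113 and 191 without Csf1r or Adgre1 cells, 78, 155 and 233 with the rule on thinned cells, 65, 145 and 210 without cells above 15000 UMIs, 494, 763 and 1257 at 20 UMIs or more, and 57, 114 and 171 at 100 UMIs or more. With 2 of 4 NK genes it was 116 lower and 224 in all. Calls against T cells (135 higher, 194 lower, 329 in all) were 276, 370 and 646 with at least 2 Ncr1 UMIs, 366, 323 and 689 with no C1q limit, 266, 317 and 583 with the rule on thinned cells, 274, 328 and 602 with 2 of 4 NK genes, 255, 311 and 566 without cells above 15000 UMIs, 250, 314 and 564 without cells lacking the 7 other NK genes, and 48, 45 and 93 with DESeq2. They were 231 higher and 514 in all without Csf1r or Adgre1 cells, 323 lower and 505 in all with T cells free of the C1q limit, and 124 lower with C1q under 0.1%. Of 1413 values for the 79 genes named against T cells (the 4 marker genes included), 62 lost their call and 0 turned sign. With no library block the calls were 127, 162 and 289. The alternatives on cells lacking the 7 genes, on the Gzmf cell and on all Ncr1 cells were chosen after seeing the data. No paired analysis was possible because each group was 1 library. The cause of these changes was not tested. Depth limits the NAM side most, where 1 UMI is worth 4.75 CPM.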

Other observations

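Against T cells, 2.04% of all genes tested were called higher in NK cells and 2.93% lower, the background for the counts given here. By edgeR 0 of 25 proliferation genes were called (1 at an unadjusted p under 0.05, and 0 by DESeq2), 0 of 12 heat shock genes (3, and 0) and 0 of 14 genes of NAD metabolism (0, and 0). Of 20 glycolysis and hypoxia genes, 1 was higher (Vegfa) and 2 lower (Slc16a3, Bnip3) in NK cells, and DESeq2 called 0. The type I interferon list had 1 of 16 higher (Ifi44) and 3 lower (1 called by DESeq2), with Ifi27l2a at 161 and 42.8 CPM in NK cells against 1812 and 1422 CPM in T cells (edgeR log2 difference -3.96 ± 0.28, adjusted p = 2.4e-06). The interferon gamma list had 1 of 21 higher (Irf8) and 2 lower (Iigp1, Tap1), MHC class I 2 of 12 lower (H2-T22, Tap1), and the immediate early list 1 of 20 lower (Nr4a2). Of 14 cytokine receptors 3 were lower (Il2ra, Il21r, Il7r), and all 4 T-cell genes outside the rule were lower (Cd4, Cd5, Cd6, Thy1). Between the libraries, 0 of 9 glycolysis and hypoxia genes passed 1.5-fold in NK cells, and 1 of 10 MHC class I genes was higher (Tap2) and 0 lower, against 1 higher and 2 lower (Tap1 and H2-T23, at -0.66 and -0.61) without the Csf1r or Adgre1 cells, with B2m at 7032 and 7010 CPM. None of the 28 NAD metabolism genes reached 50 UMIs in NK cells, so they were left out of these counts.

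Erythroid markers summed to 15.8 and 85.5 CPM in NK cells and 20.1 and 4746 CPM in T cells of the untreated and NAM libraries. In the T cells of the NAM library 178 of 254 cells held none, and the highest cell stood at 573960 CPM. Their part in the comparisons was not tested.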
